A study of Vitis vinifera with 12 samples.

Results

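Mature grape berries were compared with green berries for the conserved miRNAs of grapevine (Vitis vinifera cv Corvina). The comparison took 4 of the 12 arrays of the study: 2 of mature berries, harvested 15 weeks after flowering, and 2 of green (preveraison) berries, harvested 5 weeks after flowering. Each array was hybridized with Cy5-labelled low molecular weight RNA from a pool of field-grown berries whose seeds had been removed, and each RNA came from its own extraction. The fruit had no treatment, the 2 stages share cultivar, field growth and seed removal, and, as the fruit was pooled, the spread between arrays is not one between plants. The other 8 arrays, of berries at veraison (9 weeks), leaves, roots and young inflorescences, entered the authors' normalization and the estimate of the error, and the veraison arrays also a few values and a one-way test over the berry stages. The custom array carried miRNA probes and controls but no marker genes of berry tissue, so the stage labels could not be checked against other transcripts.

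MicroRNAs of plants are cut from hairpin precursors by a Dicer-like enzyme and guide an Argonaute protein to mRNAs with a nearly perfect complementary site, which are then cleaved or repressed. Most conserved families act on transcription factors that set cell identity, growth and the timing of developmental phases, and others act on hormone perception, on nutrient transport or on the miRNA pathway itself. A fleshy fruit such as the grape berry first grows by division and expansion, then softens, colours and accumulates sugar from veraison on. Small RNA bound on the array was read as total fluorescence of a pooled extract, so fewer cells of a type and less RNA per cell cannot be told apart.

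The array held 1579 distinct perfect match probes for miRNA precursors. The complement of 141 of these shared at least 18 bases with a mature miRNA listed by the study, in 27 families, and 53 equalled a mature miRNA in full. A probe is named here after the mature miRNA it matches best, with a number where several probes match it. Probes of 1 family overlap in sequence and can bind each other's miRNA, and 55 of the 141 matched more than 1 listed miRNA, so that probes of a family are not replicates. The miR396c sequence lies within miR396b probe 2, and miR171c belongs to a group of near identical forms whose probes are named after miR171a.

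The following RNA sequences are the complements of the deposited probes on which the comparison turned, written 5′ to 3′. Capitals mark the seed, bases 2 to 8 of the listed miRNA, as far as the probe holds it. They are shown because they stand for the probes with the higher mean signal in mature berries (here of miR169, miR535, miR319, miR156 and miR160) or the lower (here of miR172, miR396, miR171, miR164, miR397 and miR403).
miR169f: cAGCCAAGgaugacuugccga
miR169b probe 1: uGAGCCAAggauggcuugccg
miR169r probe 1: uGAGUCAAggaugacuugccg
miR535a probe 1: uGACAACGagagagagcacgcu
miR156f probe 1: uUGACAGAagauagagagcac
miR319b probe 2: cuUGGACUGaagggagcucc
miR160c probe 1: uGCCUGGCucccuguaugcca
miR172a probe 2: aGAAUCUUgaugaugcugca
miR172c probe 3: ggAAUCUUGaugaugcugca
miR396b probe 2: uUCCACAGcuuucuugaacu
miR171a probe 6: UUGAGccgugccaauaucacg
miR164a probe 1: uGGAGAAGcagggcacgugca
miR397a probe 1: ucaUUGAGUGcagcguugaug
miR403a probe 1: uUAGAUUCacgcacaaacucg
miR171a probe 6 starts within the seed and therefore shows only part of it. The miR172a and miR172c probes overlap almost entirely and differ at their ends.

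The values below are log2 of the intensities that the authors had quantile-normalized over the arrays, and a difference is the mean of mature berries minus the mean of green berries, with the standard error of the limma fit to all 12 arrays. A probe was above background on an array where its intensity before normalization exceeded the mean plus 2 SD of 14 negative and degradation controls. This level was 666 and 1728 scanner units on the mature arrays and 2374 and 697 on the green arrays, against median intensities of the miRNA probes of 186 and 111 on the mature arrays and 88.5 and 35 on the green arrays. Accordingly, 44 and 23 of the 141 mature-matched probes were above background on the mature arrays, and 22 and 73 on the green arrays. Mature replicate 1 and green replicate 2 thus had the lower backgrounds and the more numerous detections, and values without each array are given below. The mature replicates correlated with r = 0.911 over the 141 probes, and the green replicates with r = 0.861, the probes being related and not independent.

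No miRNA probe passed an adjusted p of 0.05 between mature and green berries (limma with Benjamini-Hochberg adjustment over 1579 probes, smallest adjusted p 0.259, share called 0%). At an unadjusted p under 0.05 there were 140 probes, 58 with the higher mean in mature berries (3.67% of all) and 82 with the lower (5.19%). This balance depended on the scaling, with 136 higher and 31 lower without normalization, 146 and 51 at the 75th percentile, and 141 and 84 with the positive controls. Of the mature-matched probes, 5 had the higher mean and 13 the lower at that level. Single arrays decided this split, which was 17 higher and 2 lower without green replicate 2, and 1 and 17 without green replicate 1. It was 15 and 8 without mature replicate 2, and 3 and 7 without mature replicate 1. The differences that follow are therefore given as measured values and not as calls. As a description of separation, both mature arrays lay above both green arrays for 24 of the 141 mature-matched probes, against 18% of all 1579 probes, and below both for 30, against 18.9%. The share among the mature-matched probes was thus near that of all probes in either direction. Among the 181 miRNA probes above background on at least 1 of the 4 arrays, the shares were 12.7% above and 13.3% below.

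The family medians of the difference were above 0 for 13 families and below 0 for 14. They exceeded 1 in size in 7 families: miR535 and miR169 with the higher mean in mature berries, and miR396, miR172, miR397, miR164 and miR403 with the lower. The median lay within 1 of 0 in the other 20 families. In 8 families no probe was above background on any of the 4 arrays (miR164, miR394, miR397, miR398, miR399, miR479, miR828 and miR845), so their values are those of dim probes.

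**Figure D1:**
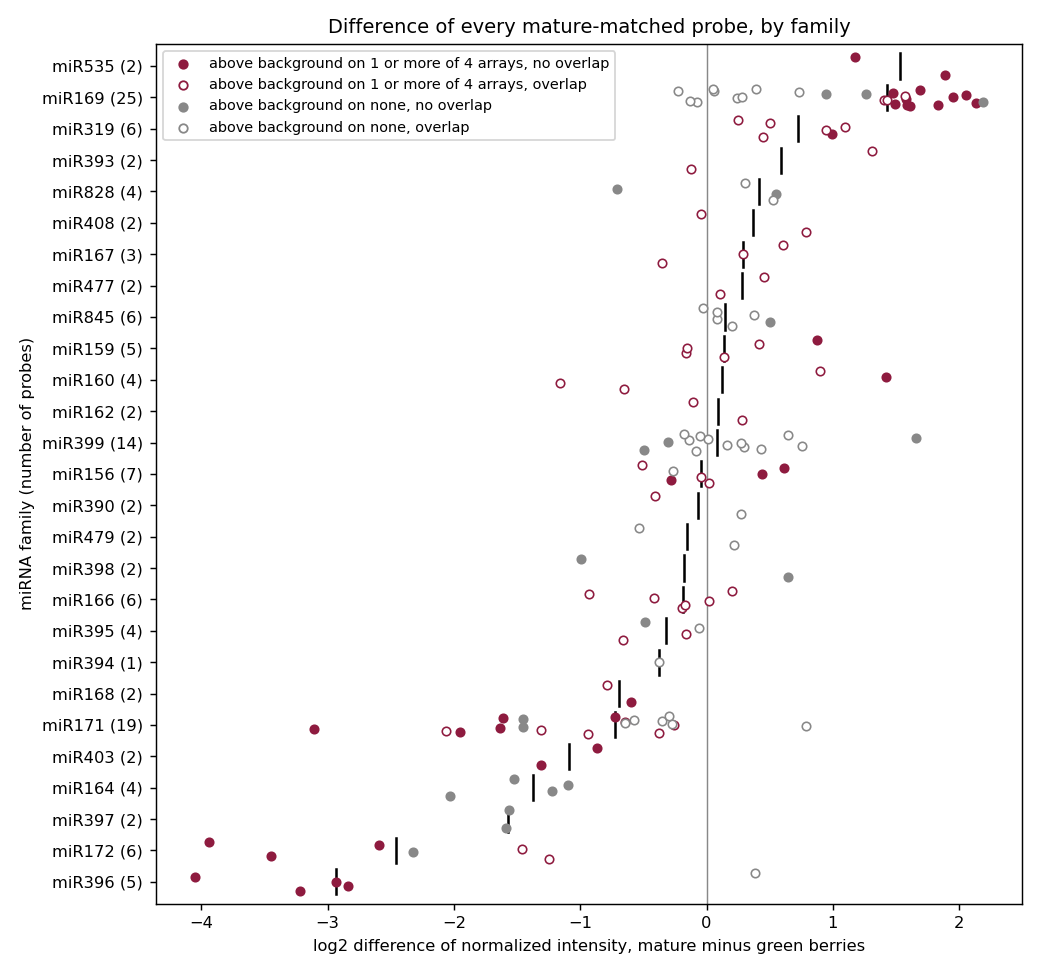
Log2 difference of normalized intensity, mature minus green berries (x axis), of each of the 141 mature-matched probes (points) in 27 families (rows, number of probes in brackets), with the family median as a black bar. Red marks probes above background on at least 1 of the 4 arrays, grey the others, and filled points those whose 2 mature arrays do not overlap the 2 green arrays. The miR535 and miR169 medians lie at 1.53 and 1.43, and the miR396 and miR172 medians at -2.93 and -2.46.

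Presence was called by the study's background level and mismatch ratio, required here on both arrays, a requirement the study does not state. The intensity had to exceed background and 1.2 times that of the mismatch probe. By this rule, 20 mature-matched probes in 8 families were present in mature berries and 19 in 8 families in green berries. Which stage had more depended on the rule: 56 in mature and 37 in green berries without the ubiquitin control in the background, 15 and 9 at mean plus 3 SD, but 42 and 69 where 1 of the 2 arrays sufficed. The family detected most widely was miR166, which targets class III homeodomain leucine zipper mRNAs, with 5 of 6 probes present in mature and 6 of 6 in green berries. miR319 had 5 of 6 probes present in mature and 4 of 6 in green berries, miR159 2 of 5 at both stages, and miR167 2 of 3 at both stages. miR535 had 2 probes present in mature berries and 1 in green berries, and both miR160c probes and miR156f probe 1 were present in mature berries only. miR403a probe 1 and miR390 probe 2 were present in green berries only. These one-stage detections rest on backgrounds that differed between the arrays of each stage.

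Among the miRNAs that time developmental phases, miR172 had the lower mean in mature berries. miR172 represses APETALA2-like transcription factors. miR172c probe 3 gave 6.15 and 5.95 in mature berries and 8.69 and 11.30 in green berries. Both mature arrays lay below both green arrays, and the probe was above background only on green replicate 2. The difference was -3.94 ± 1.06 (SE, 2 arrays per stage, limma adjusted p = 0.259), the strongest of the mature-matched probes by unadjusted p (limma, 0.00292). miR172a probe 2 gave 6.77 and 6.57 in mature berries and 8.99 and 11.25 in green berries, a difference of -3.45 ± 1.03 (SE, limma adjusted p = 0.290). miR172c probe 1, the brightest probe of the family by its mean over all 12 arrays (as wherever a probe is called the brightest), gave 8.27 and 9.46 in mature berries and 9.46 and 11.19 in green berries, so that its arrays of the 2 stages met. All 6 miR172 probes had a lower mean in mature berries (differences of -3.94 to -1.25), 4 of them without overlap, against 18.9% of all 1579 probes. No fold is given, because no miR172 probe was above background on a mature array and the bound fell below 1.

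miR156 represses SQUAMOSA promoter binding protein-like factors and acts upstream of miR172 in the phase change of Arabidopsis. Its 7 probes had differences of -0.51 to 0.62 with a median of -0.04. miR156a, the brightest, gave 11.08 and 12.09 in mature berries and 12.29 and 10.84 in green berries. The 2 stages overlapped fully for it. Its mismatch probe was about as bright, at 11.26 and 12.415 in mature berries and 12.21 and 10.99 in green berries. By the mismatch ratio, miR156a was present at neither stage. miR156f probe 1 gave 11.11 and 11.23 in mature berries and 10.69 and 10.77 in green berries, a small but non-overlapping difference of 0.44 ± 0.63 (SE, limma adjusted p = 0.892).

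miR535 is close to miR156 in sequence outside the seed. miR535a probe 1 gave 12.45 and 11.61 in mature berries and 9.68 and 10.60 in green berries. Both mature arrays lay above both green arrays, with a ratio of 3.70 and a difference of 1.89 ± 0.73 (SE, limma adjusted p = 0.461). miR535a probe 2 gave 11.91 and 12.25 in mature berries and 10.803 and 11.002 in green berries, a ratio of 2.26 (limma adjusted p = 0.604). These 2 are the only probes of the family, and both were above background on both mature arrays. Before normalization, miR535a probe 1 read 2062 and 2450 scanner units in mature berries and 1206 and 1268 in green berries, again without overlap. miR535a probe 2 read 1612 and 3285 in mature berries and 2480 and 1732 in green berries, which overlapped.

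miR169 targets the A subunit of the nuclear factor Y complex and was represented by 25 probes. Of these, 22 had the higher mean in mature berries. For 13 the stages did not overlap, all in that direction, against 18% of all 1579 probes. miR169f, the brightest, gave 11.78 and 10.79 in mature berries and 8.89 and 10.51 in green berries. It was above background on 1 array of each stage, and the difference was 1.58 ± 0.85 (SE, limma adjusted p = 0.626), a ratio of 2.99. miR169b probe 1 gave 10.84 and 9.76 in mature berries and 7.88 and 8.44 in green berries, a difference of 2.14 ± 0.60 (SE, limma adjusted p = 0.259). It was above background on 1 mature array and no green array. Against the lowest values above background on the green arrays, its mean in mature berries was 1.04-fold higher. This is no strict bound, as the other mature array was itself below background. By the same measure miR169a probe 1 was 1.16-fold and miR169x 1.09-fold higher in mature berries, each also above background on 1 mature array only. Of the seed groups, the 17 probes with seed AGCCAAG had a median difference of 1.495 and the 2 with GAGCCAA one of 2.16. The AGCCAAG probes ranged from -0.22 to 2.05, with those of miR169d, miR169i and miR169v at -0.22 to 0.28. The 4 with GAGUCAA, among them miR169r, had a median of 1.11, and the 2 with AGCGAAG (miR169y) one of 0.22. No miR169 probe was above background on both arrays of either stage.

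miR319, which targets TCP factors of leaf and organ growth, and miR159, which targets GAMYB-like MYB factors, share much of their sequence and are separate in their targets. All 6 miR319 probes had a higher mean in mature berries, by 0.25 to 1.10. miR319b probe 2 gave 13.31 and 12.90 in mature berries and 11.38 and 12.85 in green berries, a ratio of 1.99 (difference 0.99 ± 0.80, SE, limma adjusted p = 0.774). It was the only one of the 6 without overlap, by a narrow margin to green replicate 2. miR159c probe 2, the brightest of its family, gave 15.12 and 15.12 in mature berries and 13.61 and 14.87 in green berries. The equal mature values belong to the normalized scale only. Before normalization it read 11014 and 21422 scanner units in mature berries and 14556 and 46870 in green berries, which overlapped. The other 4 miR159 probes overlapped, and the family median was 0.14.

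miR396 targets growth-regulating factors, which promote cell division in young organs, and had the lowest family median of the 27. miR396b probe 2 gave 6.05 and 6.39 in mature berries and 7.92 and 10.20 in green berries. The difference was -2.84 ± 1.28 (SE, limma adjusted p = 0.551). miR396b probe 1 gave 6.86 and 7.19 in mature berries and 9.21 and 11.29 in green berries, and differed by -3.22 ± 1.41 (SE, limma adjusted p = 0.511). Of the 5 miR396 probes, 4 lay without overlap below the green arrays, by -4.05 to -2.84, against 18.9% of all 1579 probes. These 4 were above background only on green replicate 2. The fifth, which shares only the minimum of 18 bases with the miRNA, differed by 0.38.

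miR171 targets GRAS factors of the HAIRY MERISTEM group. Of its 19 probes, 18 had a lower mean in mature berries and 7 did so without overlap, against 18.9% of all 1579 probes. miR171a probe 6 gave 6.54 and 6.50 in mature berries and 8.46 and 10.80 in green berries, with a difference of -3.11 ± 1.01 (SE, limma adjusted p = 0.344). The 7 probes of the miR171a group had a median of -1.64, and the other 12 one of -0.61. miR171h probe 1, the brightest of the family, gave 9.80 and 8.93 in mature berries and 10.22 and 9.96 in green berries, a difference of -0.72 ± 0.63 (SE, limma adjusted p = 0.809).

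miR164, which targets NAC factors including the CUP-SHAPED COTYLEDON genes, had 4 probes, none of them above background on any of the 4 arrays. All 4 probes were lower in mature berries without overlap, against 18.9% of all 1579 probes. miR164a probe 1 gave 7.07 and 6.90 in mature berries and 9.05 and 8.99 in green berries. Its replicates lay close together at both stages (SD 0.12 in mature and 0.05 in green berries, 2 arrays each), and it differed by -2.03 ± 0.56 (SE, limma adjusted p = 0.259). The mismatch probe of miR164a probe 1 gave 8.14 and 9.53 in mature berries, above the matched probe on both arrays. In green berries the mismatch probe gave 8.36 and 7.72, below the matched probe. miR166c probe 1, a bright probe, gave 14.44 and 12.87 in mature berries and 12.42 and 15.73 in green berries. The 2 green replicates enclosed both mature values, and no miR166 probe separated the stages in the normalized values. Before normalization, both mature arrays lay below both green arrays for 5 of the 6 miR166 probes.

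**Figure D2:**
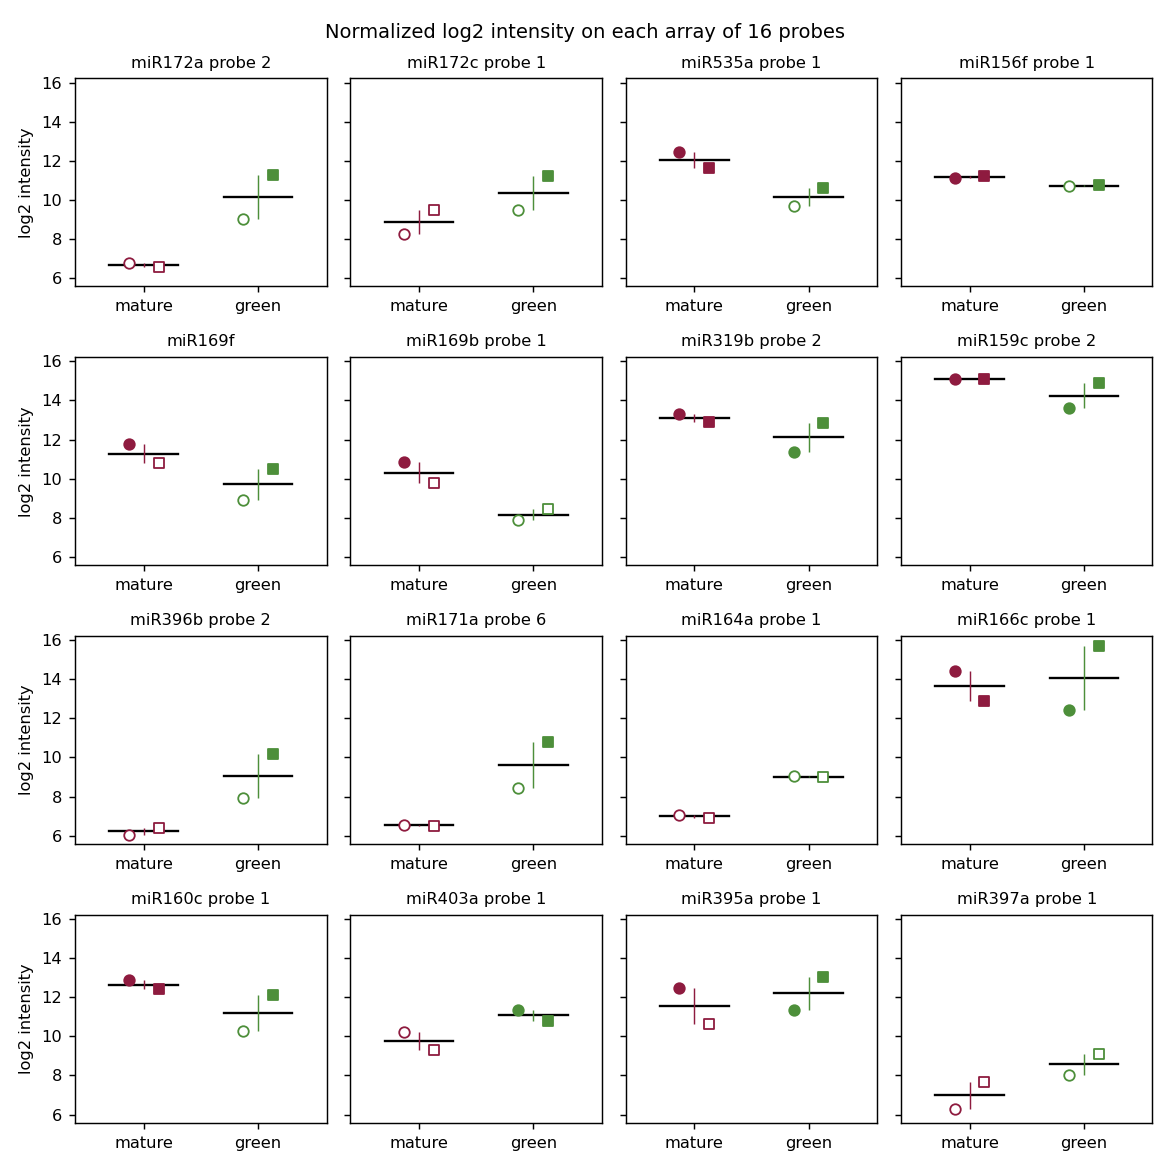
Normalized log2 intensity (y axis) of 16 probes on each array of mature berries (red) and green berries (green). Circles are replicate 1 and squares replicate 2, filled where the probe was above background on that array, with the mean as a black line and the range of the 2 arrays as a thin line. For miR172a probe 2, miR396b probe 2 and miR171a probe 6 green replicate 2 is the highest array, while both miR164a probe 1 replicates agree closely at each stage.

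The families linked to auxin gave no common direction. miR160 and miR167 act on auxin response factors, miR393 on the TIR1 and AFB receptors, and miR390 on the precursor of trans-acting siRNAs against further response factors. miR160c probe 1 gave 12.87 and 12.40 in mature berries and 10.30 and 12.13 in green berries, without overlap and with a ratio of 2.68 (difference 1.42 ± 0.99, SE, limma adjusted p = 0.697). The miR160a probes had the opposite sign (-0.66 and -1.16), and the family median was 0.12. miR167b gave 12.82 and 12.21 in mature berries and 11.64 and 12.82 in green berries, and miR393b gave 12.37 and 11.09 in mature berries and 9.42 and 11.42 in green berries. Both overlapped between stages. miR390 probe 2 gave 10.80 and 10.32 in mature berries and 11.77 and 10.17 in green berries.

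The miRNAs that act on the miRNA pathway had lower or similar means in mature berries. miR403 targets ARGONAUTE2 in Arabidopsis, and miR403a probe 1 gave 10.22 and 9.29 in mature berries and 11.37 and 10.78 in green berries. It was above background on both green arrays and on neither mature array, and was at least 1.13-fold lower in mature berries (measured difference -1.31 ± 1.02, SE, limma adjusted p = 0.760). miR168, which targets ARGONAUTE1, gave 10.27 and 9.29 for probe 1 in mature berries and 10.35 and 10.41 in green berries, a narrow separation (difference -0.60 ± 0.72, SE). miR162, which targets DICER-LIKE1, had differences of 0.28 and -0.11 for its 2 probes, both overlapping.

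Of the miRNAs linked to nutrients, miR395 acts on sulfate assimilation and transport, miR399 on the phosphate regulator PHO2, and miR397, miR398 and miR408 on mRNAs of copper proteins. miR397a probe 1 gave 6.30 and 7.65 in mature berries and 8.04 and 9.08 in green berries. Both miR397 probes lay below the green arrays without overlap, by -1.59 and -1.56, against 18.9% of all 1579 probes. Neither miR397 probe was above background. miR395a probe 1 gave 12.46 and 10.61 in mature berries and 11.34 and 13.05 in green berries, which overlapped. The 14 miR399 probes had a median of 0.09 and the miR398 and miR408 probes signs in both directions. The remaining families, miR394, miR477, miR479, miR828 and miR845, had medians of -0.38 to 0.42.

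The values at veraison place part of these differences in time, with no test and with the green or mature arrays shared between the steps. For miR172 the median step was -2.27 from green berries to veraison and 0.13 from veraison to mature berries, and for miR396 the steps were -1.80 and -1.11. miR169 had a step of 1.01 to veraison and 0.32 after it, and miR535 steps of 0.52 and 1.01. For miR395, the median was 1.10 above green berries at veraison and 1.43 lower in mature berries than at veraison. miR395a probe 1 gave 15.12 and 14.13 at veraison, above all 4 arrays of the other berry stages.

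The sign of the family medians depended on the scaling for 14 of the 27 families, when raw medians were put through quantile normalization across miRNA probes only, left without normalization, or scaled to the 75th percentile or the positive controls, or when the deposited table was given a floor of 50. The 3 settings without quantile normalization moved the median of all 1579 probes by 0.82 (no normalization), 0.63 (75th percentile) and 0.31 (positive controls). Relative to this shift, the miR169 median was -0.08, -0.17 and -0.34 in these 3 settings, against 1.44 in the deposited table, and the miR535 median -0.32, -0.41 and -0.58, against 1.54. The miR319 median was -1.49, -1.58 and -1.75, against 0.73. Not taken relative to all probes, the miR169 median was 0.75, 0.46 and -0.03 in these 3 settings. The miR535 median was 0.51, 0.22 and -0.27. All probes include many dim ones. Without normalization, the 181 probes above background on at least 1 of the 4 arrays had a median of -1.02, and miR319 one of -0.66. A probe could enter that set through a green array alone. miR396 and miR172 kept their sign, at -3.28 to -2.91 and -3.01 to -2.36 relative to all probes over all 6 scalings. In all, 11 families had a median below 0 under every scaling, and 7 of them (miR164, miR168, miR171, miR172, miR396, miR397 and miR403) also when any 1 of the 4 arrays was left out. Only 2 families, the dim miR828 and miR845, had one above 0 under every scaling. The mature-matched probes as a whole had a median of -0.05 in the deposited table. It was -0.41 without normalization, -0.69 at the 75th percentile and -1.18 with the positive controls. A sign below 0 was thus easier to keep than one above 0. The medians of miR169, miR535 and miR319 stayed above 0 in the deposited table when any of the 4 arrays was left out, but moved in size. The miR169 median was 0.63 without green replicate 1 and 0.84 without mature replicate 1, against 2.23 without green replicate 2 and 2.08 without mature replicate 2. The miR319 median was 0.06 without green replicate 1 and 0.17 without mature replicate 1, against 1.38 without green replicate 2 and 1.29 without mature replicate 2, and the miR535 median 1.25 to 1.81. Without green replicate 2, the miR172 median was -1.63 and the miR396 median -2.03.

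**Figure D3:**
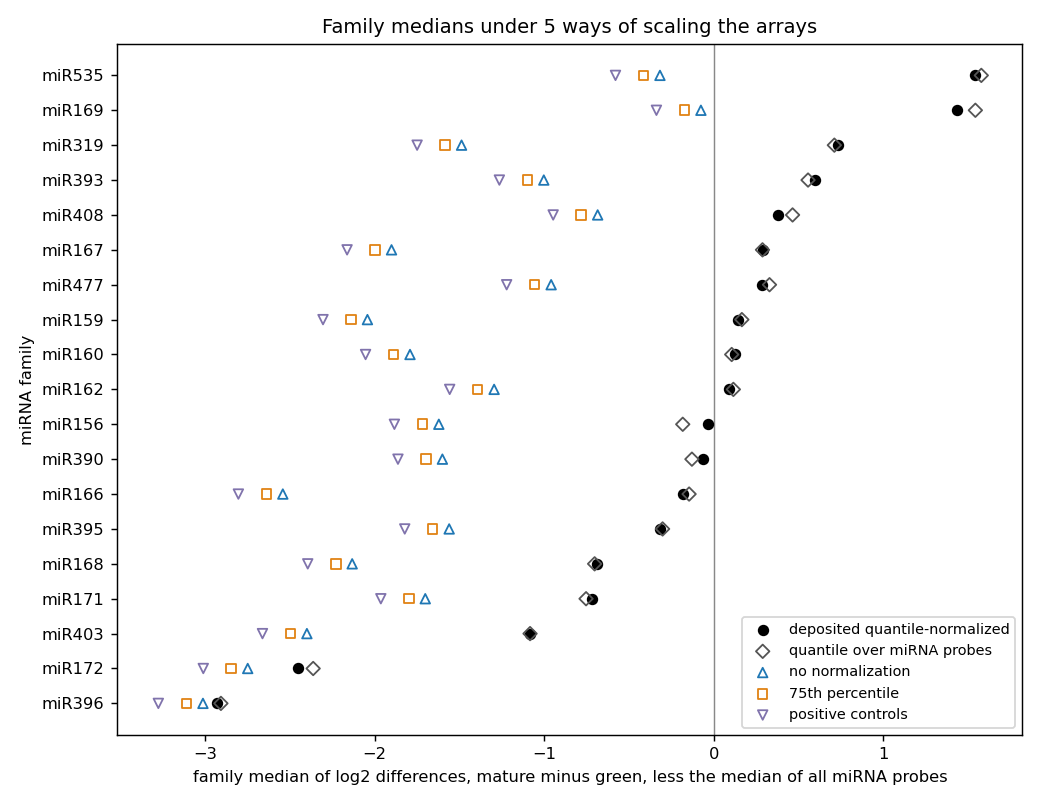
Family median of the log2 differences, mature minus green berries, less the median of all miRNA probes (x axis), for the 19 families with a probe above background on at least 1 of the 4 arrays, under 5 ways of scaling (symbols). Relative to all miRNA probes, miR396 and miR172 stay at or below -2.36 in all 5. On the same axis, miR169, miR535 and miR319 are above 0 only where arrays were quantile-normalized. Not taken relative to all probes, the miR169 and miR535 medians without normalization were 0.75 and 0.51.

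On the scale before normalization, miR172c probe 3 read 181 and 94 scanner units in mature berries and 548 and 2444 in green berries, and miR164a probe 1 read 212 and 159 in mature berries and 743 and 392 in green berries. On these raw medians, both mature arrays lay below both green arrays for 6 of 6 miR172 probes, 4 of 5 miR396, 4 of 4 miR164 and 15 of 19 miR171 probes, against 7.22% of all 1579 probes. This share was 44.2% among the 181 probes above background on at least 1 of the 4 arrays. That filter does not treat the stages alike, as a probe can pass it through a green array alone. Of the mature-matched probes, 73 passed on green replicate 2, against 22 on green replicate 1 and 44 and 23 on the mature arrays. The same separation held for 5 of 6 miR166, 4 of 5 miR159, 3 of 6 miR319 and 0 of 7 miR156 probes. Both mature arrays lay above both green arrays for 18 of 25 miR169 probes, against 52.6% of all probes and 7.73% of those 181. miR319b probe 2 read 3683 and 4227 in mature berries and 3543 and 10596 in green berries, which overlapped.

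Probes that the choice of members did not use were read for the same comparison. Each probe has a mismatch probe with destabilizing substitutions, and 231 further miRNA probes, moved along the precursor, shared 13 to 17 bases with a mature-matched probe. The study reports that signal did not drop off for probes moved a short way toward the 5′ end of the precursor. Of the 231, 48 were above background on at least 1 of the 4 arrays. Moved probes that keep signal and those that lose it were read together here, so they cannot test specificity. The mismatch probes of miR172 had a median difference of 0.27 and those of miR396 one of 0.50, against -2.46 and -2.93 for their matched probes. Those of miR169 had 0.46 and those of miR535 -0.22, against 1.43 and 1.53. For miR169, 19 of the 25 mismatch probes had the higher mean in mature berries. Those of miR164, miR168, miR171 and miR403 had 0.23, 0.32, 0.12 and -0.08, against -1.37, -0.70, -0.72 and -1.09. Both miR397 mismatch probes were lower in mature berries, with a median of -0.80 against -1.575. Over the 141 mature-matched probes, the mismatch was higher in mature berries for 83 and lower for 58. Among the moved probes, 2 of 9 near miR396 and 6 of 9 near miR172 had a lower mean in mature berries, 0 and 4 of them without overlap, against 18.9% of all 1579 probes. Near miR172, the moved probes numbered miR-228 and miR-226 on the array differed by -3.21 and -2.93, much as the matched probes did. Their unadjusted p was 0.00141 and 0.00148 (limma, adjusted p = 0.259 for each), while 3 of the 9 had a higher mean. Of the 39 moved probes near miR169, 18 had a higher mean in mature berries and 6 did so without overlap, a share near the 18% of all probes. Of the 4 near miR535, 3 had a higher mean in mature berries and 2 did so without overlap.

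**Figure D4:**
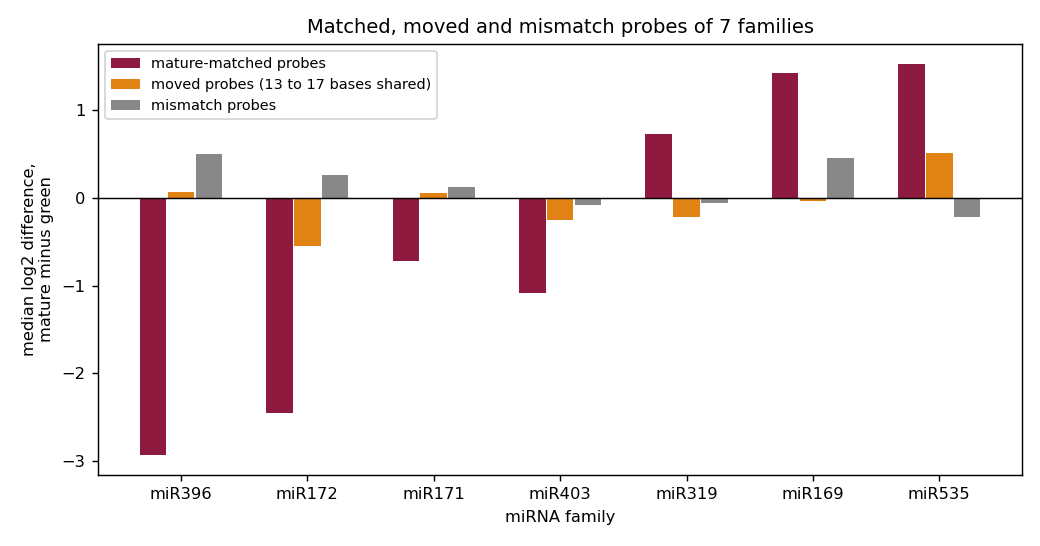
Median log2 difference, mature minus green berries (y axis), of the mature-matched probes, the moved probes sharing 13 to 17 bases with them, and the mismatch probes of 7 families (bars from 0). The matched probes of miR396 and miR172 lie at -2.93 and -2.46, while their mismatch probes lie at 0.50 and 0.27.

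Base composition moved with the differences. The GC content of the probe complement had a median of 57.1% in the 24 mature-matched probes without overlap above green and of 47.6% in the 30 without overlap below green. Across the 80 mature-matched probes above background on at least 1 of the 4 arrays, GC content and difference correlated with r = 0.53. Without that filter the correlation was r = 0.35 across all 141 mature-matched probes and r = 0.04 across the 1438 other miRNA probes, as a description over related probes on shared arrays. By family, the median GC content was 57.1% for miR169, 54.8% for miR535, 41.1% for miR172 and 40.9% for miR396, but 61.0% for miR164. Its part in the differences was not tested.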

How the data were processed

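The authors hybridized custom CombiMatrix arrays and deposited, per array, raw intensities (median of replicate spots) and a table of intensities quantile-normalized over the 12 arrays. No source used here says if local background had been subtracted. Slides were stripped and used again, and which arrays shared a slide was not known. The 1947 miRNA rows hold 1579 distinct sequences. A further 5 rows were positive controls and were left out. Values below 1 were set to 1 before log2. The main test was limma 3.58.1 (R 4.3.3; lmFit, eBayes with a trend) on 6 groups of 2 arrays, with Benjamini-Hochberg adjustment over all 1579 probes at 0.05, checked on simulated data. Named are, per family, the brightest probe, the largest differences without overlap among probes above background on both arrays of a stage, and miRNAs that the study discusses. Others were named after their values were seen. Members and lists were chosen with earlier results of these data known. Ratios are 2 to the power of the difference. Where the dimmer stage was never above background, each of its arrays was set at the higher of its own value and the lowest value above background there ("at least"). Where the brighter stage was above background on 1 array only, its other array kept its measured value, and the ratio is no strict bound. miR482, too short for the overlap rule, was not analysed here. Precision is limited by having 2 arrays a stage and by the controls' level. Alternatives covered scaling, floor, filter, arrays in the fit, detection and overlap.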

Additional observations from a re-analysis of the deposited data

How the results depend on the processing

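Called probes numbered 1 without normalization, 2 at the 75th percentile scaling and 2 at that to the positive controls (miR172c probe 3 in both), and 18 with a floor of 50 (miR164a probe 1 among them), against 0 in the main fit and under all other limma settings, leave-one-outs included (0 to 0). A one-way test over the berry stages gave 81 of 1579 probes at the unadjusted threshold and 0 after Benjamini-Hochberg. Of the 141 mature-matched probes, 7 were among the 81. The study used a one-way test too, but first dropped probes with a low mismatch ratio and grouped near identical miRNAs. Neither step was taken here. Replicate numbers did not pair the mature with the green arrays (deviations of arrays with 1 number correlated with r = -0.21 over all probes). Such deviations correlated with r = 0.625 between mature berries and veraison, 0.606 between mature berries and inflorescences, and 0.584 between veraison and inflorescences. For green berries, r was -0.406 with inflorescences and -0.374 with leaves, but 0.011 with roots. The remaining pairs lay at -0.274 to 0.249. What arrays of 1 number share was not tested. With the replicate block 0 probes were called, and 0 with the crossed pairing, which was added after seeing the data.

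Probes present in mature berries numbered 56 without the ubiquitin control in the background, 15 with 3 SD, 42 with 1 of 2 arrays sufficing, and 20 to 42 when mature replicate 1 or 2 was left out (20 in the main setting). In green berries they numbered 37 without that control, 9 with 3 SD, 69 with 1 of 2 arrays, and 19 to 69 with green replicate 2 or 1 left out (19 in the main setting).

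Of the 35 probes named by rule, 14 kept their sign in every setting. With no normalization, the difference became -1.02 for miR156a, -0.45 for miR156f probe 1, -0.77 for miR159c probe 2, -0.21 for miR160c probe 1, -0.40 for miR162 probe 1, -1.08 for miR167b, -0.69 and -0.64 for miR319b probes 1 and 2, 0.12 for miR394a and -0.29 for miR477a probe 1. With the 75th percentile, it became -1.30 for miR156a, -0.74 for miR156f probe 1, -1.05 for miR159c probe 2, -0.50 for miR160c probe 1, -0.68 for miR162 probe 1, -1.36 for miR167b, -0.98 and -0.92 for miR319b probes 1 and 2, -0.15 for miR393b, -0.58 for miR477a probe 1, -0.14 for miR535a probe 2 and -0.094 for miR845c probe 1. With the positive controls, it became -1.79 for miR156a, -1.23 for miR156f probe 1, -1.54 for miR159c probe 2, -0.99 for miR160c probe 1, -1.17 for miR162 probe 1, -1.85 for miR167b, -0.003 for miR169f, -0.15 for miR169r probe 1, -1.47 and -1.41 for miR319b probes 1 and 2, -0.64 for miR393b, -0.41 for miR399b probe 3, -0.37 for miR408 probe 1, -1.07 for miR477a probe 1, -0.23 for miR479 probe 1, -0.63 for miR535a probe 2 and -0.58 for miR845c probe 1. The cause was not tested.

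Leaving out 1 array at a time turned the sign within -0.71 to 0.75 for miR156a, -0.70 to 1.26 for miR162 probe 1, -2.07 to 1.24 for miR166c probe 1, -0.30 to 0.88 for miR167b, -0.36 to 1.26 for miR319b probe 1, -1.21 to 0.40 for miR390 probe 2, -1.31 to 0.56 for miR394a, -1.59 to 0.26 for miR395a probe 1, -0.27 to 1.79 for miR399b probe 3, -0.82 to 2.40 for miR408 probe 1, -1.10 to 1.31 for miR477a probe 1, -0.56 to 0.999 for miR479 probe 1 and -0.71 to 0.88 for miR845c probe 1. An arm with 1 array was assumed to vary like the other groups. The other settings turned no sign among the named probes they tested.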
